A study of Solanum lycopersicum with 10 samples.

Results

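The skin and the flesh of red ripe tomato fruit were compared by RNA-seq in 4 of the 10 libraries of the series. The 4 libraries are those that the sample titles assign to red ripe exocarp (replicates 1 and 2) and to red ripe mesocarp (replicates 1 and 2). All fruits came from cv. Ailsa Craig, and the same cultivar gave the exocarp and mesocarp of mature green fruits and the leaves that make up the other 6 libraries. The replicates were biological according to the study's methods. The number of plants or fruits behind each library is not given in the sources used here, and whether exocarp and mesocarp of 1 number shared fruits is not given either. The exocarp is the outer layer of the fruit wall with the epidermis and its cuticle, and the mesocarp is the fleshy layer beneath it. In bulk tissue, fewer cells of a type and less RNA per cell cannot be told apart.

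The epidermis of the tomato fruit covers itself with a cuticle of cutin and wax, in which the yellow flavonoid naringenin chalcone and triterpenoids are embedded. During ripening, ethylene and a set of transcription factors switch on the synthesis of lycopene, the disassembly of cell walls and the production of aroma compounds in both layers, while vacuolar and cell wall invertases split the imported sucrose. The genes below are ordered by these roles, and levels of different genes are compared per transcript length, as FPKM.

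Of 35288 genes in the tables, 22801 passed the filter on low counts and were tested, and 8535 of them (37.4%) differed between the layers at an adjusted p under 0.05 by the quasi-likelihood test of edgeR with Benjamini-Hochberg adjustment. The exocarp was higher for 4123 genes (18.1%) and lower for 4412 (19.4%). Of these, 926 were at least 8-fold higher in the exocarp and 1032 at least 8-fold lower. Genes higher in the exocarp held 32.8% and 32.4% of the counts of the exocarp libraries and 17.77% and 17.73% of those of the mesocarp libraries. The median log2 fold change of all genes tested was 0, and it moved by less than 0.1 under the other scalings. The genes tested include 1155 without a count in the 4 red libraries, which the fit puts at a change of 0. These hold the median near 0, so it says little about the scaling. Total counts of the 4 libraries ran from 34818289 to 45637676. Replicates differed by at least 2-fold for 79 of 10721 genes over 10 CPM in the exocarp and for 4 of 10695 in the mesocarp, so the exocarp pair was the more variable one. In 68.7% of the genes tested the libraries of the layers did not overlap. The genes without a count in the 4 red libraries can neither be called nor separate the layers, so they lower this share and those of called genes.

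**Figure D1:**
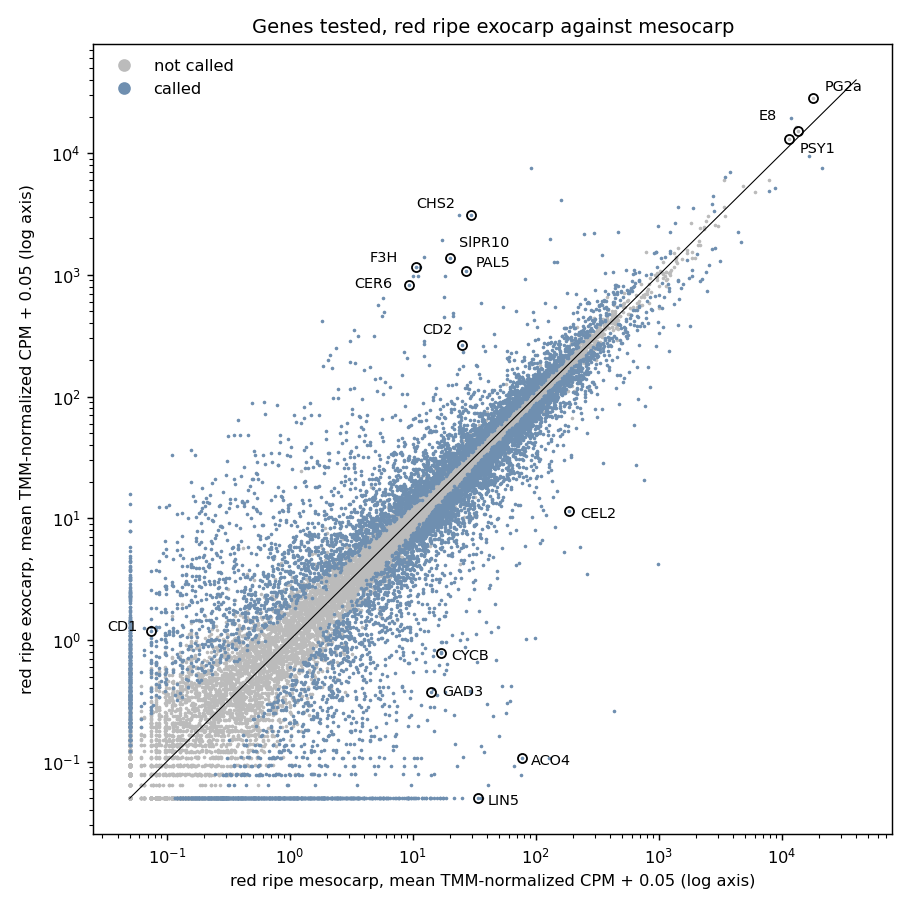
Mean TMM-normalized CPM of each tested gene in red ripe mesocarp (horizontal) and red ripe exocarp (vertical), each with 0.05 added and on a log axis. Blue points are the 8535 called genes and grey points the others, the line marks equal levels, and circled genes are described in the text: CHS2, F3H, CER6, SlPR10 and PAL5 lay far above the line, and LIN5, ACO4, CYCB, GAD3 and CEL2 far below it.

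The tissue labels were checked with epidermal genes. All 6 exocarp markers that could be named (CD1, GPAT6, CER6, CD2, CHS1 and MYB12) were higher in the exocarp, and their summed level was 1262 and 1062 FPKM there against 17.2 and 18.7 FPKM in the mesocarp. CD1 and GPAT6 were at 0 in mesocarp replicate 2. The phloem sucrose transporter SUT1 stood at 22.0 and 25.5 FPKM in the exocarp and 42.5 and 43.2 FPKM in the mesocarp, and the part of vascular tissue in the differences below was not tested. The 3 green tissue markers, genes of the small Rubisco subunit, summed to 116 and 222 FPKM in the exocarp against 34.6 and 32.7 FPKM in the mesocarp. RBCS2A, which made up nearly all of this sum, was higher in the skin, RBCS3 was lower and RBCS1 was not called. The part of chlorophyll-containing cells in the differences was not tested. The study's reference gene SlACTIN (Solyc03g078400) was itself lower in the exocarp, at 192 and 178 FPKM against 309 and 301 FPKM, a log2 fold change of -0.71 ± 0.08 (SE, adjusted p = 0.00028).

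The deposited tables give identifiers without names. The study names 13 of them. For the others, names from general knowledge were kept only where a gene of that name in the RefSeq table lay on the same chromosome at the same relative place, which 145 of 194 written pairs did. This check makes a pairing likely and does not prove it. Counts of called genes per list below stand beside 18.1% higher and 19.4% lower over all genes tested. Among all genes tested are 1155 without a count in the 4 red libraries, which cannot be called and lower both shares. In a fit of the 4 red libraries alone, 4328 genes were higher and 4526 lower of 19178 tested. Some lists also hold genes without a count in these libraries, so the shares are a rough background only. No list was tested as a set.

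Several genes of flavonoid and phenylpropanoid synthesis were far higher in the skin. Of 10 tested members of the flavonoid list, 5 were higher in the exocarp and none lower. The median log2 fold change was 5.05, and 3.48 with the genes that had no count in a layer set against the floor of 3 counts per library. Chalcone synthase makes naringenin chalcone, the first flavonoid of the pathway. Its gene CHS2 (Solyc05g053550.3) was at 2004 and 1578 FPKM in the exocarp libraries and at 18.2 and 16.3 FPKM in the mesocarp libraries, which gave it rank 26 among all genes of the exocarp by FPKM. The log2 fold change was 6.71 ± 0.23 (SE, adjusted p = 7.23e-07), or 105-fold. The second gene, CHS1, was at 712 and 616 FPKM against 6.14 and 7.05 FPKM, a log2 fold change of 6.67 ± 0.41 (adjusted p = 1.03e-05).

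Flavanone 3-hydroxylase, encoded by F3H, turns naringenin into dihydrokaempferol. F3H was at 816 and 636 FPKM in the exocarp and 6.79 and 6.59 FPKM in the mesocarp, and its log2 fold change of 6.78 ± 0.16 (adjusted p = 2.81e-07) was the highest of the list. The flavonoid 3'-hydroxylase gene F3'H followed with 274 and 185 FPKM against 2.52 and 2.93 FPKM (log2 fold change 6.41 ± 0.33, adjusted p = 3.88e-06). MYB12, the transcription factor behind the yellow colour of tomato skin, was at 126 and 108 FPKM in the exocarp and at 1.40 and 1.50 FPKM in the mesocarp (log2 fold change 6.33 ± 0.27, adjusted p = 1.55e-06). For all 5 genes every exocarp library lay at least 62 times above every mesocarp library in FPKM. The other members were at or near the floor: DFR, F3'5'H and ANT1 had no count in any of the 4 libraries, the chalcone isomerase gene CHI1 had 3 counts in exocarp replicate 2 only, AN2 had 7 counts in mesocarp replicate 1 only, and ANS was at 1.02 and 1.49 FPKM against 0.678 and 0.998 FPKM.

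Phenylalanine ammonia-lyase supplies the cinnamic acid from which these compounds are built. PAL5 was at 438 and 337 FPKM in the exocarp and 9.56 and 10.2 FPKM in the mesocarp, 39.6-fold apart (log2 fold change 5.31 ± 0.36, adjusted p = 1.59e-05). PAL2 was far less abundant, with 601 and 252 counts against 3 and 0, a ratio of 303 with a counting interval of 103 to 1471 (95%). Mesocarp replicate 1 held all the mesocarp counts of PAL2, and its log2 fold change of 8.14 became 7.33 without exocarp replicate 1. Without mesocarp replicate 2 the ratio of counts was 171 (58.3 to 830), and without mesocarp replicate 1, where the mesocarp was at 0, the exocarp was at least 133-fold higher. By contrast 4CL, which activates the acids to their CoA esters, was at 126 and 121 FPKM against 133 and 136 FPKM (log2 fold change -0.10 ± 0.12, adjusted p = 0.544).

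**Figure D2:**
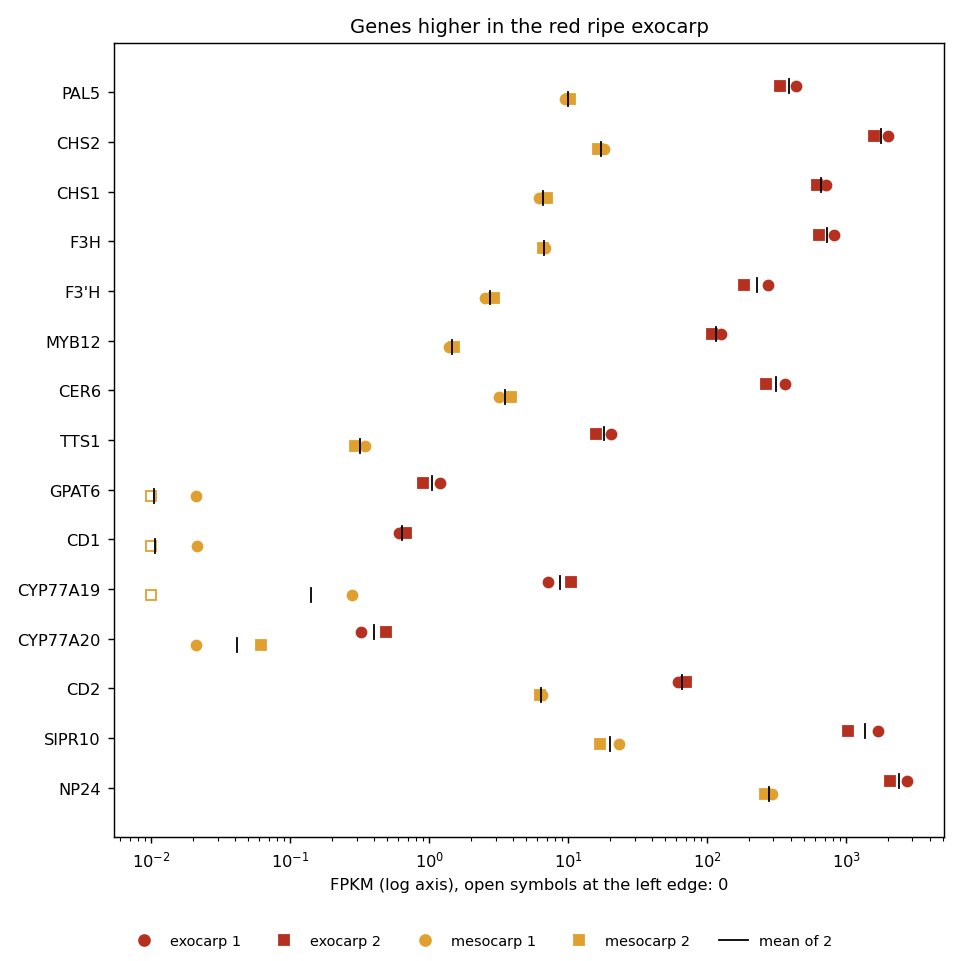
FPKM (log axis) of genes with the higher level in the red ripe exocarp, in each of the 4 libraries: red symbols are exocarp and yellow ones mesocarp, circles replicate 1, squares replicate 2, and the short line is the mean of 2. Open symbols at the left edge stand for 0. CHS2 and NP24 reach 1578 FPKM or more in both exocarp libraries, whereas CD1 and CYP77A20 reach at most 0.677 FPKM.

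All 7 named genes of cutin, wax and triterpenoid synthesis were higher in the skin, with log2 fold changes from 3.12 to 6.50 and a median of 5.78, but their levels were far apart. CER6, an enzyme that elongates the very-long-chain fatty acids of wax, was at 361 and 266 FPKM in the exocarp and 3.17 and 3.85 FPKM in the mesocarp (log2 fold change 6.50 ± 0.24, adjusted p = 8.86e-07). TTS1, which makes the triterpenoid amyrins of fruit wax, was at 20.3 and 16.0 FPKM against 0.342 and 0.294 FPKM (log2 fold change 5.81 ± 0.20, adjusted p = 7.24e-07). The related TTS2 stood at 4.73 and 1.61 FPKM against 0.183 and 0.374 FPKM, and its log2 fold change of 3.52 was 2.56 without exocarp replicate 1.

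The genes of cutin itself were low in both layers of the ripe fruit. CD1, the enzyme that polymerizes cutin outside the cell, was at 0.601 and 0.677 FPKM in the red exocarp, while the green exocarp libraries had 2001 and 1597 FPKM. GPAT6, which joins hydroxylated fatty acids to glycerol, was at 1.19 and 0.897 FPKM in the red and at 609 and 391 FPKM in the green exocarp. What remained was still on the side of the skin. CD1 had 36 and 43 counts in the exocarp against 2 and 0 in the mesocarp, a ratio of 42.1 with a counting interval of 11.3 to 353 (95%), and GPAT6 had 93 and 74 against 3 and 0, a ratio of 59.3 (19.9 to 290.3). The cytochrome P450 genes CYP77A19 (7.11 and 10.4 FPKM against 0.280 and 0 FPKM) and CYP77A20 (0.321 and 0.485 FPKM against 0.0208 and 0.0617 FPKM) belong to a family that hydroxylates fatty acids for cutin. Their log2 fold changes were 5.78 ± 0.54 (adjusted p = 8.76e-05) and 3.12 ± 0.58 (adjusted p = 0.00346).

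Because mesocarp replicate 2 had no count of CD1, GPAT6 and CYP77A19, their fitted changes rested on mesocarp replicate 1. Without mesocarp replicate 1 only lower bounds against the floor of 3 counts were left, of at least 12.2-fold for CD1, 25.9-fold for GPAT6 and 206-fold for CYP77A19. These bounds hold against mesocarp replicate 2 only. CYP77A19 had 26 counts in mesocarp replicate 1, so its 206-fold is no lower bound for the tissue. Without mesocarp replicate 2 the ratio of counts was 23.7 (6.36 to 199) for CD1 and 33.5 (11.3 to 164) for GPAT6, and the log2 fold change of CYP77A19 was 4.93. For CYP77A20 the ratio was 17.73 (4.70 to 149.8) without mesocarp replicate 2, and the log2 fold change was 2.42 without mesocarp replicate 1. CD2, a homeodomain regulator of the cuticle, did not share the low level of these enzymes. It was at 62.1 and 70.7 FPKM in the exocarp and 6.44 and 6.28 FPKM in the mesocarp, 10.6-fold apart with an SE of 0.10 on a log2 fold change of 3.40 (adjusted p = 3.12e-07).

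The 12 candidate genes of the study were all higher in the exocarp, with log2 fold changes from 3.44 to 7.51 and a median of 5.72. The study chose them on these samples, so their direction is no independent evidence. SlPR10 (Solyc09g090980.3), a pathogenesis-related protein of class 10, was the most abundant at 1692 and 1029 FPKM against 23.1 and 16.9 FPKM, 68.6-fold apart (log2 fold change 6.10 ± 0.28). SlSTK had the largest change, with 22.6 and 20.8 FPKM against 0.0832 and 0.158 FPKM (log2 fold change 7.51 ± 0.42). SlABCG10, a transporter of the ABCG family, reached 38.9 and 18.6 FPKM against 0.249 and 0.252 FPKM, and its log2 fold change of 6.84 was 6.22 without exocarp replicate 1. SlHH3 was at 46.9 and 36.0 FPKM against 0.808 and 1.16 FPKM.

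The other 8 candidates (SlBCAD, SlFP, SlIQM2, SlKIN5D, SlLECRK4, SlSNL6, SlTSI1 and SlWSD1) lay between 3.91 and 29.7 FPKM in the exocarp and at or under 1.32 FPKM in the mesocarp. Leaving out a single library moved the change of 4 of these by over 1.5 times. SlSNL6 fell from 4.09 to 3.42 on the log2 scale without exocarp replicate 2, and SlTSI1, with a log2 fold change of 5.77, had 3 counts left in the mesocarp without mesocarp replicate 1, a ratio of 134 (45.6 to 649.7). SlWSD1 went from 5.34 to 4.64 without mesocarp replicate 1 and to 6.40 without mesocarp replicate 2. SlBCAD, whose 6 mesocarp counts all lay in replicate 1, went from 7.02 to 6.20 without mesocarp replicate 2, and without mesocarp replicate 1 its exocarp level was above the mesocarp by at least 117-fold.

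Among the pathogenesis-related genes, 5 of 6 tested were higher in the skin and none lower, with a median log2 fold change of 3.00. Over all genes tested, 18.1% were higher. NP24, an osmotin-like protein of fruits, was the most abundant with 2728 and 2064 FPKM in the exocarp and 295 and 263 FPKM in the mesocarp (log2 fold change 3.12 ± 0.55, adjusted p = 0.0027). PR1a rose from 3 and 4 counts in the mesocarp to 495 and 193 in the exocarp, and its log2 fold change of 6.67 ± 0.81 (adjusted p = 0.000382) was 5.78 without exocarp replicate 1. The chitinases were CHI9, at 35.3 and 18.9 FPKM against 3.97 and 3.37 FPKM, CHI3, at 13.6 and 37.6 FPKM against 3.22 and 2.101 FPKM, and CHI17, at 8.75 and 21.0 FPKM against 3.68 and 3.76 FPKM. The exocarp replicates of PR1a, CHI3, CHI9 and CHI17 differed by 1.86-fold to 2.77-fold from each other. The layers did not overlap for these genes, as for 68.7% of all genes tested. Without exocarp replicate 2 the log2 fold change of CHI3 fell from 3.25 to 2.32 and that of CHI17 from 2.02 to 1.24, and without mesocarp replicate 2 CHI3 was no longer called (adjusted p = 0.0505).

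The enzymes that lead to lycopene were nearly level between skin and flesh. Of 8 tested, 1 was higher and 1 lower in the exocarp, and the median log2 fold change was 0.06. Phytoene synthase 1 (PSY1), the first committed step in fruit, was at 5364 and 5940.5 FPKM in the exocarp and 4942 and 5020.5 FPKM in the mesocarp (log2 fold change 0.20 ± 0.17, adjusted p = 0.398). ZISO, the 15-cis-zeta-carotene isomerase, was at 2416 and 2528 FPKM against 1565 and 1563 FPKM, a log2 fold change of 0.68 ± 0.20 (adjusted p = 0.0301). That call was lost without any one of the 4 libraries, with adjusted p-values from 0.0708 to 0.129. PSY2, the form of green tissue, was at 4.77 and 5.03 FPKM against 8.12 and 7.29 FPKM (log2 fold change -0.64 ± 0.09, adjusted p = 0.000851). DXS1, GGPPS2, PDS, ZDS and CRTISO did not pass the test.

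Of 7 tested genes beyond lycopene, 4 were lower in the exocarp and none higher, where 19.4% of all genes tested were lower. The median was -0.69 (-0.63 with LCYE set against the floor). The 3 not called, CRTRB2, CCD1A and CCD1B, had log2 fold changes from -0.03 to 0.14. The chromoplast lycopene beta-cyclase CYCB, which turns lycopene into beta-carotene, was at 0.475 and 0.310 FPKM in the exocarp and 8.50 and 10.2 FPKM in the mesocarp. This was the clearest difference of the carotenoid genes, 22.7-fold with a log2 fold change of -4.50 ± 0.27 (adjusted p = 8.79e-06). LCYE, the epsilon-cyclase, had 0 and 0 counts against 6 and 4, close to the floor of 3 counts. CRTRB1, a beta-carotene hydroxylase, was at 33.3 and 34.4 FPKM against 59.8 and 54.4 FPKM (log2 fold change -0.74 ± 0.20, adjusted p = 0.0193), and zeaxanthin epoxidase ZEP at 11.4 and 14.8 FPKM against 21.4 and 21.2 FPKM (log2 fold change -0.69 ± 0.17, adjusted p = 0.0118). Leaving out a library ended the call of CRTRB1 in each of the 4 cases (adjusted p 0.0534 to 0.108) and that of ZEP without exocarp replicate 1 (0.0627) or mesocarp replicate 1 (0.0609).

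**Figure D3:**
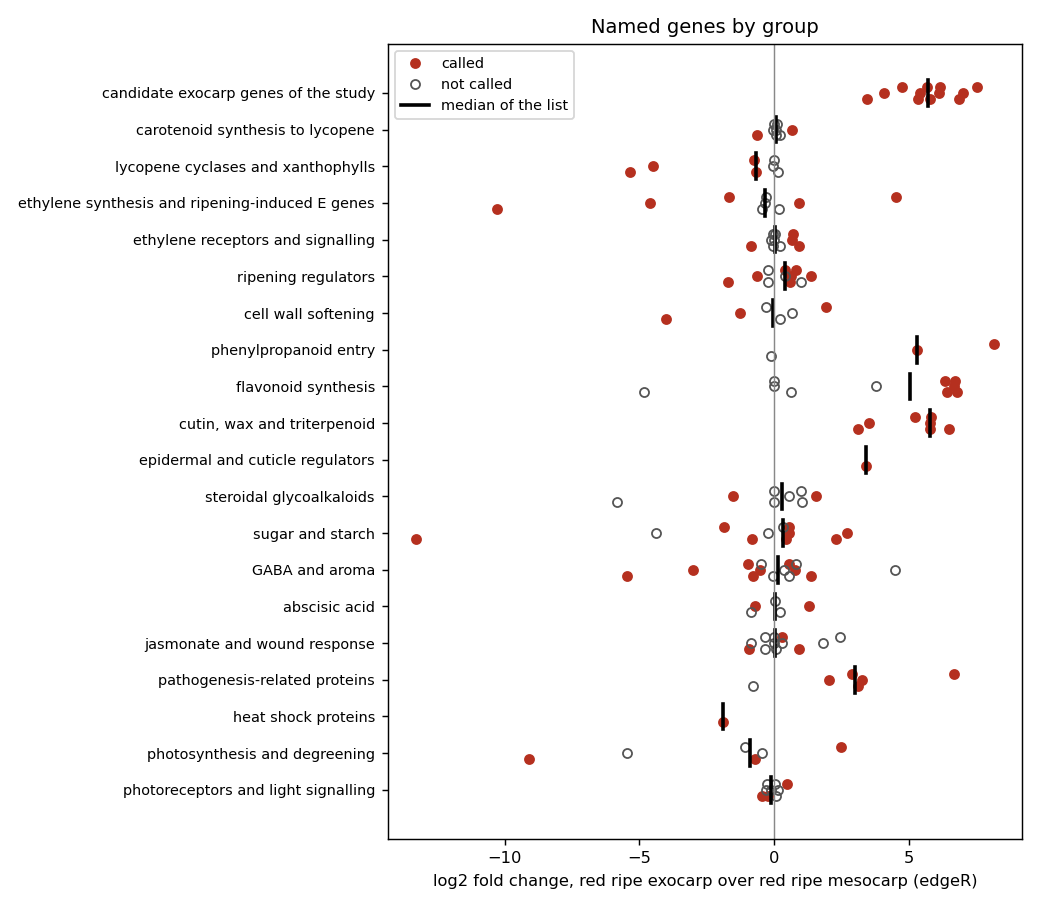
Log2 fold change of red ripe exocarp over red ripe mesocarp for every tested named gene, by gene group. Filled points are called at an adjusted p under 0.05, open points are not, and the black line is the median of the group: the medians of the candidate, phenylpropanoid and cutin groups lie at 5.31 or more. Genes without a count in a layer, such as LIN5, RBCS3, LCYE and CHI1, are drawn at fitted values whose size depends on the fit, and the flavonoid median of 5.05 rests partly on CHI1.

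Ethylene is made from ACC, which ACC synthases (ACS) form and ACC oxidases (ACO) convert. Of 9 tested genes of this list, 2 were higher and 3 lower in the exocarp, and the members of 1 family went opposite ways. ACS1A was at 227 and 189.7 FPKM in the exocarp and at 9.20 FPKM in each mesocarp library (log2 fold change 4.52 ± 0.38, adjusted p = 4.92e-05). ACS4, a ripening-induced form, was at 74.1 and 43.1 FPKM against 186 and 196 FPKM (log2 fold change -1.69 ± 0.24, adjusted p = 0.00126). The other ripening form, ACS2, was at 173 and 318 FPKM in the exocarp replicates, which enclosed the mesocarp values of 306 and 313 FPKM (log2 fold change -0.31 ± 0.30, adjusted p = 0.467).

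ACO4 was almost confined to the flesh of these libraries. It had 2 counts in each exocarp library against 3085 and 2544 in the mesocarp, a ratio of 1322 with a counting interval of 516 to 4852 (95%), and an adjusted p of 1.61e-08. The mesocarp level was 47.1 and 51.1 FPKM. The main fruit form ACO1 was much more abundant, at 2504 and 2731 FPKM against 3403 and 3227 FPKM, and did not pass the test over all libraries (log2 fold change -0.32 ± 0.40, adjusted p = 0.579) but did in a fit of the 4 red libraries alone (0.0112). E8 and E4 are ripening genes induced by ethylene. E8 was at 6832 and 7673 FPKM against 6474 and 6431 FPKM (adjusted p = 0.415). E4 was at 5894 and 6119 FPKM against 3356 and 3116 FPKM (log2 fold change 0.91 ± 0.29, adjusted p = 0.0369), a call lost without any one of the 4 libraries (0.0881 to 0.167) and with a replicate block (0.0507).

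Of 10 tested genes of ethylene perception and signalling, 3 receptors were higher and 1 was lower in the exocarp, while ETR1, CTR1, EIN2 and the EIL factors were not called. NR, the Never-ripe receptor, was at 706 and 696 FPKM in the exocarp and 362 and 391 FPKM in the mesocarp (log2 fold change 0.91 ± 0.08, adjusted p = 5.67e-05). ETR4 was at 385 and 436 FPKM against 252 and 260.0 FPKM (log2 fold change 0.70 ± 0.13, adjusted p = 0.00371). These receptors bind ethylene and repress the response until they do. ETR5, at 3.95 and 3.85 FPKM against 2.44 and 2.56 FPKM, was called with both mesocarp libraries only (adjusted p = 0.0128, and 0.0743 or 0.0569 without mesocarp replicate 1 or 2). ETR2 was lower, at 3.48 and 2.96 FPKM against 5.32 and 6.39 FPKM (log2 fold change -0.84 ± 0.12, adjusted p = 0.000767).

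The regulators of ripening differed between layers by at most 1.72 on the log2 scale. Of 11 tested, 5 were higher and 2 lower in the exocarp, with a median of 0.42. The MADS-box factor FUL1 was at 1758 and 1808 FPKM in the skin and 702 and 701 FPKM in the flesh, 2.57-fold apart (log2 fold change 1.36 ± 0.10, adjusted p = 2.29e-05). FUL2 was at 126 and 137 FPKM against 84.2 and 88.3 FPKM (log2 fold change 0.62 ± 0.08, adjusted p = 0.000463). RIN, the MADS-box master regulator of ripening, had 739.5 and 775 FPKM against 381 and 396 FPKM, and did not pass in the fit over all libraries (log2 fold change 0.98 ± 0.37, adjusted p = 0.0726) but did in a fit of the red libraries alone (4.9e-05). The 4 values of RIN did not overlap between the layers, as for 68.7% of all genes tested.

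The NAC factor NOR was at 339 and 329 FPKM against 195 and 190.5 FPKM (log2 fold change 0.81 ± 0.16, adjusted p = 0.00546, and 0.053 without mesocarp replicate 2). TAGL1, a MADS-box factor of fruit expansion and ripening, was at 206 and 193 FPKM against 134 FPKM in both mesocarp libraries. Its adjusted p of 0.0117 became 0.0516 without exocarp replicate 1, 0.0843 without mesocarp replicate 1 and 0.0885 without mesocarp replicate 2. DML2, the DNA demethylase of ripening, was at 168 and 169 FPKM against 121 and 133 FPKM (adjusted p = 0.0071, and 0.0621 without mesocarp replicate 1). CNR was at 334 and 256 FPKM against 228 and 224 FPKM and missed the threshold (adjusted p = 0.0578), though it passed with DESeq2 (0.0299), with the red libraries alone (0.0296) and without exocarp replicate 2 (0.0197).

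On the flesh side, HB1, an HD-Zip factor that binds the ACO1 promoter, was at 16.7 and 14.7 FPKM in the exocarp and 53.0 and 51.6 FPKM in the mesocarp (log2 fold change -1.72 ± 0.08, adjusted p = 2.31e-06). TAG1, the AGAMOUS homologue, was at 87.4 and 127 FPKM against 169 FPKM in both mesocarp libraries. Its adjusted p of 0.0227 rose to 0.0881 without exocarp replicate 1, 0.0949 without mesocarp replicate 1 and 0.0804 without mesocarp replicate 2.

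**Figure D4:**
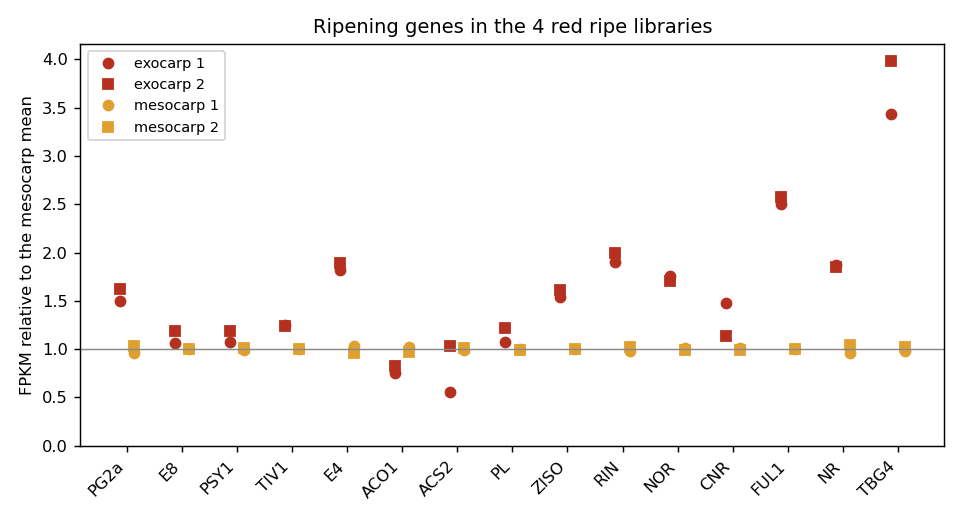
FPKM of 15 ripening genes in each of the 4 red ripe libraries, divided by the mean of the mesocarp libraries of the same gene (linear axis from 0, line at 1). PSY1, E8, TIV1 and PL lay at 1.06 to 1.25 times the mesocarp mean in both exocarp libraries, and FUL1 and TBG4 at 2.51 times or more.

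Genes of cell wall softening split between the layers. The polygalacturonase PG2a, which cuts pectin, was at 13432 and 14503 FPKM in the exocarp and 8641 and 9261 FPKM in the mesocarp, rank 2 and rank 3 by FPKM among all genes of these layers. Its difference did not pass over all libraries (log2 fold change 0.66 ± 0.88, adjusted p = 0.613) and passed in the red libraries alone (0.000399). The SE of 0.88 is from the fit of all 10 libraries, where the green mesocarp was at 2.72 and 46.6 FPKM. The pectate lyase PL was at 1169.9 and 1333 FPKM against 1098 and 1087 FPKM (adjusted p = 0.27). The beta-galactosidase TBG4, which trims pectin side chains, was the only member called higher in the skin over all libraries, at 162 and 188 FPKM against 46.4 and 48.1 FPKM (log2 fold change 1.91 ± 0.14, adjusted p = 2.66e-05).

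CEL2 and EXP1 were lower in the skin. CEL2, an endo-beta-1,4-glucanase, was at 4.04 and 6.47 FPKM in the exocarp and 88.6 and 85.0 FPKM in the mesocarp, 16.3-fold apart (log2 fold change -4.03 ± 0.56, adjusted p = 0.000775). The ripening expansin EXP1, which loosens walls, was at 56.1 and 71.1 FPKM against 159 and 152 FPKM (log2 fold change -1.27 ± 0.31, adjusted p = 0.0118). EXP1 was not called by DESeq2 (adjusted p = 0.415), nor without exocarp replicate 1 (0.0702), mesocarp replicate 1 (0.0788) or mesocarp replicate 2 (0.0612). In all, 1 of 6 tested softening genes was higher, 2 were lower, and the median was -0.05.

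Of 11 tested genes of sugar and starch metabolism, 5 were higher and 3 lower in the exocarp, and the cell wall invertases had opposite patterns. LIN5, an invertase tied to the sugar content of the flesh, had no count in either exocarp library and 1241 and 1228 counts in the mesocarp, at least 392-fold higher there when set against a floor of 3 counts per library (10.9 and 14.2 FPKM in the mesocarp). By fitted log2 fold change it was the third largest decrease of all genes of at least 10 CPM. The order of genes at 0 in the exocarp depends on the fit. LIN6, also a cell wall invertase, was at 1.27 and 1.83 FPKM in the exocarp and 0.288 and 0.352 FPKM in the mesocarp (log2 fold change 2.30 ± 0.29, adjusted p = 0.000492). The vacuolar invertase TIV1 dwarfed both at 5771 and 5699.9 FPKM against 4626 and 4603 FPKM, without passing over all libraries (adjusted p = 0.276) but passing in the red libraries alone (0.00393).

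SUS1, a sucrose synthase, was at 35.2 and 30.2 FPKM against 5.00 and 5.22 FPKM (log2 fold change 2.70 ± 0.13, adjusted p = 3.44e-06). SUS3 was more abundant and closer, at 111 and 129 FPKM against 82.4 and 82.1 FPKM, with an adjusted p of 0.0485 that missed the threshold with other scalings (0.0601 and 0.0521) and without any one library (0.0705 to 0.213). The sucrose-phosphate synthase SPS was at 180.2 and 196 FPKM against 139.7 and 143 FPKM (adjusted p = 0.00883, and 0.0555 without mesocarp replicate 1). The transporter SUT4 was lower in the skin, with 0.652 and 0.731 FPKM against 2.65 and 2.49 FPKM (log2 fold change -1.87 ± 0.22, adjusted p = 0.000327). SUT1, given above, was called lower (log2 fold change -0.83 ± 0.24, adjusted p = 0.0246), a call lost without any one library (0.0573 to 0.118).

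**Figure D5:**
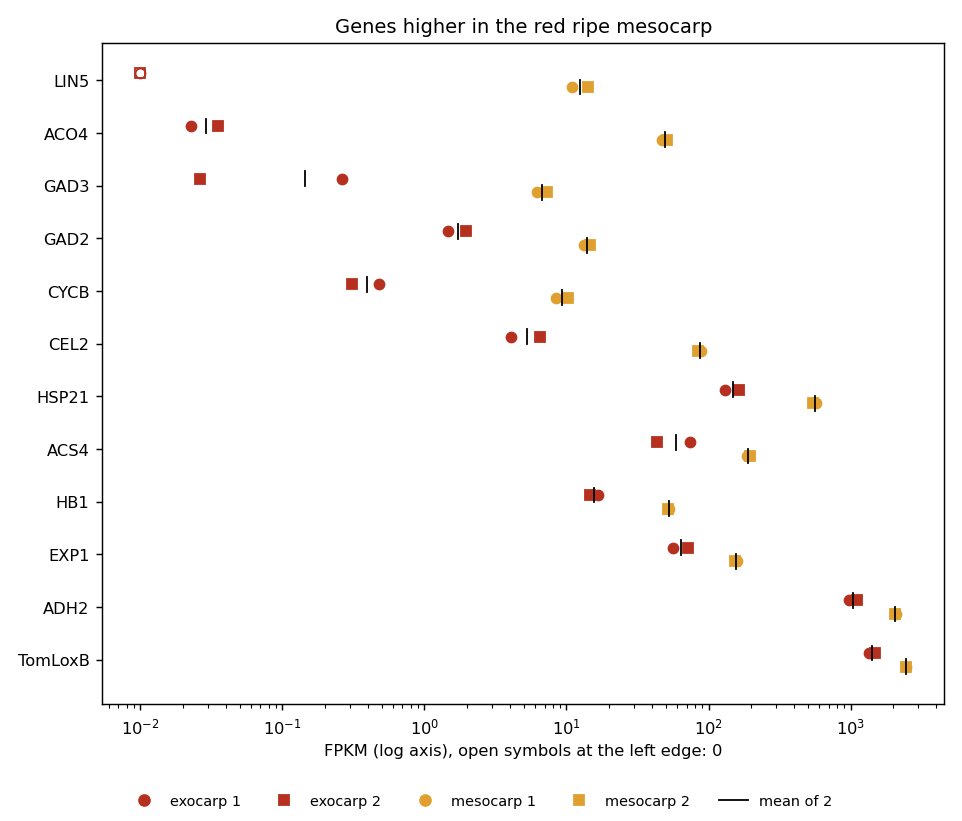
FPKM (log axis) of genes with the higher level in the red ripe mesocarp, in each of the 4 libraries: red symbols are exocarp and yellow ones mesocarp, circles replicate 1, squares replicate 2, and the short line is the mean of 2. Open symbols at the left edge stand for 0. LIN5 was at 0 and ACO4 at most at 0.0354 FPKM in both exocarp libraries, while ADH2 and TomLoxB were at 983 FPKM or more in all 4 libraries.

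Glutamate decarboxylases (GAD) make GABA, an amino acid that tomato fruit stores, and all 3 genes were lower in the skin. GAD3 was at 0.262 and 0.0263 FPKM in the exocarp and 6.18 and 7.24 FPKM in the mesocarp (log2 fold change -5.46 ± 0.35, adjusted p = 1.15e-05). Its exocarp replicates had 19 and 3 counts. Without exocarp replicate 1 the mesocarp stood above the exocarp by a ratio of 165 (56.4 to 803), and without exocarp replicate 2 the log2 fold change was -4.65. GAD2 was at 1.47 and 1.97 FPKM against 13.3 and 14.6 FPKM (log2 fold change -2.997 ± 0.16, adjusted p = 4.92e-06). GAD1, the most abundant, was at 93.5 and 102 FPKM against 144 and 137 FPKM (log2 fold change -0.51 ± 0.12, adjusted p = 0.00993, and 0.0588 or 0.0691 without exocarp or mesocarp replicate 1). The enzymes that break GABA down went the other way: GABA-T1 was at 142 and 145 FPKM against 102 and 97.2 FPKM (log2 fold change 0.54 ± 0.11, adjusted p = 0.00477), and SSADH at 92.2 and 90.9 FPKM against 56.2 and 53.5 FPKM (log2 fold change 0.76 ± 0.06, adjusted p = 5.46e-05).

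The aroma genes ADH2, TomLoxB, TomLoxC and AAT1 were at 486 FPKM or more in all 4 libraries. ADH2, which interconverts aldehydes and alcohols, was at 983 and 1108 FPKM in the exocarp and 2093 and 2043 FPKM in the mesocarp (log2 fold change -0.97 ± 0.13, adjusted p = 0.000665). The lipoxygenase gene TomLoxB was at 1358 and 1481 FPKM against 2448 and 2465 FPKM (log2 fold change -0.77 ± 0.18, adjusted p = 0.0102, and 0.0554 or 0.0502 without mesocarp replicate 1 or 2). TomLoxC, which feeds the volatile aldehydes, was at 611 and 824 FPKM against 486 and 504 FPKM (adjusted p = 0.512, and 0.0138 in the red libraries alone). AAT1, which forms esters, was at 2692 and 2459.6 FPKM against 1296 and 1655 FPKM (adjusted p = 0.24, and 0.00123 in the red libraries alone). CTOMT1, which methylates catechol to guaiacol, was much less abundant at 7.24 and 7.12 FPKM against 2.37 and 3.21 FPKM (log2 fold change 1.38 ± 0.26, adjusted p = 0.00371). In the list of GABA and aroma genes, 3 of 14 were higher and 5 lower.

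Of the genes of abscisic acid and of the jasmonate and wound response, 12 of 17 tested did not pass the test. Their log2 fold changes ran from -0.87 to 2.44, and 2 of them had no count in the 4 libraries, so they are not shown to be level. Of 5 tested abscisic acid genes, 1 was higher and 1 lower. NCED1, which cleaves the carotenoid precursor of the hormone, was at 55.2 and 158 FPKM in the exocarp and 42.4 and 45.1 FPKM in the mesocarp (log2 fold change 1.31 ± 0.41, adjusted p = 0.036). Exocarp replicate 2 carried that difference: without it the log2 fold change was 0.34 (adjusted p = 0.278), and the call was also lost without mesocarp replicate 1 (0.154) or 2 (0.135). CYP707A1, which inactivates abscisic acid, was at 8.19 and 8.98 FPKM against 12.7 and 15.6 FPKM (log2 fold change -0.70 ± 0.13, adjusted p = 0.00327). Of 12 jasmonate and wound genes, 2 were higher and 1 lower. AOC was higher, at 33.1 and 25.7 FPKM against 15.9 and 15.4 FPKM (log2 fold change 0.92 ± 0.21, adjusted p = 0.0103). LAPA1 was also higher, at 193 and 189 FPKM against 158 FPKM in both mesocarp libraries (log2 fold change 0.29 ± 0.06, adjusted p = 0.00674). AOC and LAPA1 are not among the 93 named genes counted in the sections below. The lower gene was MYC2, the main transcription factor of the jasmonate response, at 45.8 FPKM in both exocarp libraries and 89.4 and 85.8 FPKM in the mesocarp (log2 fold change -0.92 ± 0.10, adjusted p = 0.000222).

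Among the remaining named genes, the plastid heat shock protein gene HSP21 was at 131 and 165 FPKM in the exocarp and 571 and 547 FPKM in the mesocarp (log2 fold change -1.90 ± 0.18, adjusted p = 9.08e-05). Of 6 tested photosynthesis and degreening genes, 1 was higher and 2 lower. The small Rubisco subunit RBCS2A was higher in the skin, at 115 and 220.3 FPKM against 31.4 and 29.3 FPKM (log2 fold change 2.49 ± 0.27, adjusted p = 0.000216). RBCS3 had no count in the exocarp and 80 and 57 in the mesocarp, at least 21.3-fold higher there (adjusted p = 0.0125, and 0.0512 without exocarp replicate 2), and RBCS1 was at 0.826 and 1.38 FPKM against 1.42 and 1.66 FPKM (adjusted p = 0.214, and 0.0485 without exocarp replicate 2). SGR1, which starts chlorophyll breakdown, was at 459 and 534 FPKM against 811 and 849 FPKM (log2 fold change -0.72 ± 0.13, adjusted p = 0.00276). Of 9 light signalling genes, 1 was higher and 2 lower. The higher gene was HY5, a light-responsive factor, at 47.6 and 40.6 FPKM against 33.6 and 31.1 FPKM (adjusted p = 0.0215, and 0.128, 0.0601 or 0.131 without exocarp replicate 1, mesocarp replicate 1 or mesocarp replicate 2). Of 8 tested glycoalkaloid genes, 1 was higher and 1 lower, all under 1 FPKM in the red libraries.

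By fitted log2 fold change, the largest changes in each direction lay in genes without a name here. These had no count in 1 layer. Their lower bounds do not rank them against genes counted in both layers, such as ACO4. Solyc04g071900.4 had 367 and 729 counts in the exocarp and none in the mesocarp, at least 189.9-fold higher. Solyc03g112200.1 had none in the exocarp and 1458 and 1234 in the mesocarp, at least 424-fold higher there.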

How the data were processed

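Poly(A) RNA of 10 libraries (5 tissues, 2 biological replicates each) was sequenced. The authors deposited raw counts per gene together with FPKM values of the same genes, scaled for transcript length and depth. HISAT2 is named in the submitters' processing notes. The counting tool, build, annotation and use of strand are not given in the sources used here, so genes with close copies or overlapping neighbours are uncertain.

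Counts were filtered with filterByExpr by tissue, normalized by TMM and analysed by the quasi-likelihood test of edgeR 4.0.16 (R 4.3.3) in 1 model of all 10 libraries (5 residual degrees of freedom, biological coefficient of variation 0.153), with Benjamini-Hochberg adjustment and a threshold of 0.05. Standard errors came from the log2 fold change and F. FPKM served as levels only. P-values and standard errors of the main fit measure a spread pooled over all 10 libraries. Variation between green fruit or leaf replicates enters it, so it can differ from the spread of the 4 red libraries. On simulated counts (21952 genes tested, 200 changed), 78 of 100 genes changed 2-fold and 100 of 100 changed 4-fold were called, with 4 false calls. Each simulated gene had the same mean in all tissues before the change, and all genes shared the common dispersion. Changed genes were drawn from those over 5 CPM. The check therefore does not give the error rates of the real comparison, and it does not cover genes near the floor.

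Fold changes against a tissue at 0 are lower bounds against 3 counts per library (0.0717 to 0.0930 CPM after TMM). Figures and medians use fitted values unless a bound is named. With 1 to 3 counts per library at most, the ratio of summed counts has an exact Clopper-Pearson interval (95%). Both cover counting error only and leave out variation between replicates. A count of 0 in a library need not mean a level under the floor in the tissue. CYP77A19, for instance, had 26 and 0 counts in the mesocarp libraries.

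The comparison, gene lists and tests were chosen with earlier results of these data known. Named genes are the study's 12 candidates and SlACTIN, the called list members with the largest change or abundance, and the largest changes of genes with at least 10 CPM. List identifiers were written from general knowledge and kept where the RefSeq table (assembly SLM_r2.1, 41476 genes) has the name within 5% of the gene order of the chromosome, with a transcript at most 1.2 times the gene's span. A wrong identifier on the right chromosome would pass for about 10% of places. These limits were loosened after it was seen which pairs failed, before fold changes were inspected: a limit of 3% kept 143 pairs in place of 145, and a first version that took the place from the identifier's number kept fewer. Failed pairs are not named.

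Alternatives were DESeq2 1.42.0, its size factors, total counts, no filter, only the red libraries, a replicate block, each red library left out, a stricter threshold and ratios of mean FPKM with a pseudocount of 1 or 0.1. A tissue left with 1 library was assumed to vary like the others.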

Additional observations from a re-analysis of the deposited data

Results flagged for a closer look

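A set of 93 of the genes named above was compared between the stages (contrast of the 4 tissues in the same edgeR fit). For 54 of them, the difference between exocarp and mesocarp differed between red ripe and mature green at an adjusted p under 0.05. Of all genes tested, 21.3% did. In this section and the next, named genes means this set. It leaves out others named above. Of these, CCD1B (adjusted p = 0.0105), LAPA1 (0.0139) and CRTRB2 (0.042), among others, also passed, whereas DXS1 (0.902) and ETR1 (0.771), among others, did not. The named genes were chosen largely for their red fruit difference, which is part of this contrast, so the share is not read against that of all genes. The values below give, on the log2 scale, the exocarp-to-mesocarp change of red fruits minus that of green fruits. It was above 0 for 38 genes and below 0 for 16.

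Several ripening and aroma genes that were nearly level in red fruits, or higher in the skin, had been lower in the green exocarp than in the green mesocarp. The difference was 8.80 for E8, 8.48 for ACS2, 7.22 for AAT1, 6.50 for PG2a, 6.34 for TomLoxC, 6.19 for CTOMT1, 4.42 for NOR, 2.89 for TIV1 and 1.26 for PSY1. ACS2 had no count in the green exocarp, so its fitted size depends on the model, and with the floor of 3 counts per library it was at least 4.11. The green mesocarp libraries of PG2a were far apart, at 2.72 and 46.6 FPKM, as were those of AAT1 at 2.73 and 11.4 FPKM, and TomLoxC was at 0.848 and 0 FPKM in the green exocarp. It was 4.35 for GAD3, 2.68 for EXP1, 2.38 for SUT1, 1.96 for TomLoxB and 0.94 for CRTRB1, which were lower in the exocarp at both stages. EXP1 was at 0.403 and 0 FPKM in the green exocarp.

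Of the genes of flavonoid, phenylpropanoid and wax synthesis that were higher in the red exocarp, these stood further apart in red than in green fruits, by 3.21 for F3H, 3.06 for MYB12, 2.32 for CHS1, 2.05 for F3'H, 1.77 for PAL5, 1.05 for CHS2 and 1.01 for CER6, and so did SlTSI1 (2.37), SlKIN5D (1.22) and CHI9 (1.49). CER6 was the only one of the 7 cutin, wax and triterpenoid genes to pass, with values of 0.31 for TTS1 (adjusted p = 0.481) and -0.39 for TTS2 (0.812), and PAL2 did not pass either (0.136). For 4CL the value was -2.01. Among the remaining genes above 0 it was 1.83 for RBCS2A, 1.63 for FUL1, 1.56 for SUS1, 1.48 for E4, 1.39 for ETR5, 1.10 for SUS3, 0.81 for GABA-T1, 0.79 for ETR4, 0.75 for SPS, 0.70 for TAGL1, 0.67 for TBG4, 0.59 for SSADH, 0.58 for NR and 0.38 for FUL2.

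Below 0 were RBCS3 (-10.88 by the fit, and at most -6.21 with the floor of 3 counts per library, since the red exocarp had no count), ACS4 (-4.48), ACO4 (-3.43), GAD2 (-3.11), CYP707A1 (-2.39), PL (-2.11), CYCB (-1.32), TAG1 (-1.31), HB1 (-1.19), MYC2 (-1.18), CNR (-1.10), SGR1 (-1.06), HSP21 (-1.04), GAD1 (-0.57) and PSY2 (-0.49). The genes ACS4, TAG1, CYP707A1, RBCS3, NOR, CTOMT1, SPS and ETR5 were called in opposite directions at the 2 stages.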

How the results depend on the processing

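Of the 8535 genes called, 95.1% to 98.1% were also called with DESeq2, with its size factors, with total counts and without the filter, 89.9% in a fit of the red libraries alone, 91.3% with the replicate block and 66.3% to 76.6% with a library left out. None of the shared calls changed direction under these settings, with the replicate block or with a library left out. The count was 8757 with DESeq2 and 8854 in the red libraries alone. Under a stricter rule (adjusted p under 0.01 and at least 2-fold) it was 3262, with 1561 genes higher and 1701 lower in the exocarp. Leaving out each library in turn gave 5836 to 7080 calls, of which 2739 to 3331 were higher and 3097 to 3749 lower, so the number of calls depends on all 4 libraries. Mesocarp replicate 1 had the largest effect (2739 higher without it).

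The same replicate numbers of exocarp and mesocarp did not deviate together (correlation -0.04 of deviations from the tissue means). With 2 libraries per tissue this cannot show whether the numbers pair the samples. With the replicate number as a block, 7918 genes were called, and among named genes the block changed the call of E4 alone.

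Of 80 named genes that were called, 61 stayed called without each of the 4 libraries and 19 did not, as given with their values above. ACS2, which was not called, changed sign without exocarp replicate 1: its log2 fold change of -0.31 ranged from -0.83 to 0.057 with each library left out. The fit of the red libraries alone added 7 of the named genes to the calls and could not give a value for LCYE, which failed its filter. With ratios of mean FPKM no named gene that was called changed direction, but the value moved by more than its standard error for 38 of 93 named genes with a pseudocount of 1 and for 20 with 0.1. The log2 fold change of ACO4 went from -10.29 to -5.61 and -8.57. For genes near the floor of 3 counts, such as CD1, GPAT6 and LCYE, depth limits the size of the change.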

Other observations

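Genes that were at or over 10 CPM in both libraries of 1 layer and at 0 in both libraries of the other were uneven between the layers. Of 10504 such genes of the mesocarp, 20 had no count in either red exocarp library, with mesocarp counts from 381 to 1458, and LIN5 was among them. Of 10421 genes of the exocarp, 1 had no count in the mesocarp. Of the 20 genes, 18 were at or under 3 counts in both green exocarp libraries too, and 15 were at or over 10 CPM in both green mesocarp libraries. These genes were chosen after their values were seen.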
